A study of Mus musculus with 22 samples.

Results

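Oligodendrocyte precursor cells (OPCs) and committed oligodendrocyte precursors (COPs) share 1 label in the deposited annotation of the hypothalamic nuclei, and the 662 nuclei with that label, of 24965 nuclei in all, are described here. They came from 10 male ob/ob mice of 11 weeks, which lack functional leptin and are obese and diabetic, and each mouse gave 1 library of a hypothalamic punch. FGF1 mice were given 3 µg of recombinant human fibroblast growth factor 1 in 1 injection into a lateral ventricle of the brain. Vehicle mice were given PBS by the same route and were pair-fed to the FGF1 mice. Nuclei were taken 24 h later (Day 1, 3 FGF1 and 3 vehicle mice) or on Day 5 (2 FGF1 and 2 vehicle mice), and whole cells of the hypothalamus were taken on Day 5 from 6 further FGF1 and 6 further vehicle mice. Every mouse carried a ventricular cannula, and neither a lean nor a freely fed vehicle group was analysed here. The whole-cell mice ate another chow, and their tissue was a mediobasal dissection in place of the punch. On Day 1 the FGF1 mice 1, 2 and 3 gave 68, 75 and 21 OPC/COP nuclei and the vehicle mice 46, 54 and 42. On Day 5 FGF1 mice 37 and 45 gave 85 and 202, and vehicle mice 28 and 38 gave 52 and 17. The nuclei of a mouse held 73949 to 661563 unique molecular identifiers (UMIs, each a counted RNA molecule) in all, and the median nucleus of each mouse held 2642.5 to 4591.5.

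OPCs are the dividing precursors of the adult brain that make myelin-forming oligodendrocytes. They carry the receptor for platelet-derived growth factor, encoded by Pdgfra, and the proteoglycan NG2, encoded by Cspg4. On their way to myelination they lose these, pass through a short committed stage marked by genes such as Gpr17, Bmp4, Bcas1 and Enpp6, and then switch on myelin genes such as Mbp and Mag. FGF1 binds FGF receptors, and FGF signalling is known to act on the growth and maturation of these precursors.

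The label was set against its markers as a description, since the authors named clusters by their marker genes. At least 1 Pdgfra UMI was found in 210 of the 662 nuclei (31.7%, against 1.14% of unmapped neuron nuclei, which are neurons with no assigned type), Gpr17 in 102 (15.4% against 0.18%), Bmp4 in 71 (10.7% against 0.20%) and Cspg4 in 67 (10.1% against 0.27%). Of the 71 nuclei with Bmp4, 18 came from FGF1 mouse 37 and 46 from FGF1 mouse 45 of Day 5, and the other 8 mice gave 0 to 3 each, so Bmp4 marked few nuclei outside those mice. In astrocyte and microglia nuclei Pdgfra was found in 4.75% and 5.41% and Gpr17 in 1.43% and 0.21%. There Bmp4 was found in 0.52% and 0.0% and Cspg4 in 1.365% and 1.66%. The median nucleus held 3423 UMIs in OPC/COP nuclei, 2572.5 in unmapped neurons, 2693.5 in astrocyte nuclei and 3880 in microglia nuclei. Among genes with at least 50 UMIs per 1000000 in these nuclei, the 15 that stood highest over all other nuclei, by the median ratio over the 10 mice, were Neu4, Sox10, Pdgfra, Bcas1, Gjc3, Vcan, Lims2, Sema3d, Scrg1, Plxnb3, Prkcq, Sox6, Abtb2, Enpp6 and Arhgap31. Gpr17, at 49.9 UMIs per 1000000, lay just under that limit, and Cspg4, Olig2 and Matn4 were lower still, although their ratios were as high as those of some of the 15. Sox10, the transcription factor of the whole lineage, was found in 48.5% of the nuclei and in 0.68% of unmapped neurons. Pcdh15, often used as a marker of OPCs, did not set them apart in these nuclei, since 91.4% of OPC/COP nuclei and 86.9% of unmapped neurons held it.

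RNA of other cell types was present. The 10 neuron markers took 176 of 10000 UMIs in OPC/COP nuclei, against 253 in unmapped neurons, 215 in oligodendrocyte nuclei and 55.6 in astrocyte nuclei, and none of the 10 was at 0. Astrocyte markers took 7.28 (92.4 in astrocyte nuclei) and microglia markers 0.88. By mouse, the median neuron-marker level of a nucleus ran from 58.2 in FGF1 mouse 3 of Day 1 to 228 in vehicle mouse 38 of Day 5. A barcode sequence that also occurred in another mouse was found for 16 of the 662 nuclei, and doublets had not been removed from the nuclei by any caller. Summed counts per mouse cannot tell fewer cells of one state from less RNA per cell.

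How far the precursor and the committed genes shared nuclei differed between mice, a description for which no test was made, since the annotation was built on the same genes. Enpp6 encodes a choline phosphodiesterase made as precursors begin to differentiate, and FGF1 mouse 45 of Day 5 gave 119 of the 181 nuclei that held it. In that mouse 7 of the 13 nuclei with Pdgfra (53.9%) also held Enpp6, against 112 of the 189 without Pdgfra (59.3%), so the 2 genes were not seen to exclude each other there. In FGF1 mouse 37 of Day 5 the counts were 2 of 27 (7.41%) and 35 of 58 (60.3%). In the other 8 mice, where Enpp6 was rare, they were 7 of 170 (4.12%) and 18 of 205 (8.78%). Bcas1, a gene of early myelinating cells, was found in 97.3% of nuclei with Enpp6 and 45.8% of those without it in mouse 37, and in 92.4% and 88.0% in mouse 45. Its share was 23.1% in oligodendrocyte nuclei, 16.5% in astrocyte nuclei and 1.67% in unmapped neurons, whose median nuclei held 3115, 2693.5 and 2572.5 UMIs. Mbp, which encodes myelin basic protein, is not read by shares, since 64.3% of astrocyte nuclei also held a UMI of it. Gpr17, a receptor of the committed stage, also varied in its company. Of the nuclei with Gpr17, 4 of 26 in mouse 37, 6 of 44 in mouse 45 and 12 of 32 in the other 8 mice held Pdgfra, and 15, 28 and 10 held Enpp6.

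To ask what FGF1 changed within a day, counts summed per mouse were compared on Day 1. Of 4485 genes tested, 4 (percent called 0.0892) passed a false discovery rate (FDR) of 0.05 in edgeR's quasi-likelihood test, and all 4 were higher with FGF1. They were Zmym1, a zinc finger gene, Serpina3n, a secreted protease inhibitor raised in reactive glia, Stat3, the transcription factor of gp130 cytokine signalling, and S100a10, the annexin A2 partner. None of the 4 is in the lists of OPC, COP or oligodendrocyte markers. At an unadjusted p below 0.05 there were 266 genes, 154 of them fitted higher.

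Levels are given as CPM, the UMIs of a gene per 1000000 UMIs of that mouse's nuclei of the type named. Stat3 (chr11:100885098-100939540, minus strand, GRCm38) stood at 156, 191 and 203 CPM in FGF1 mice 1, 2 and 3 and at 54.5, 43.1 and 23.1 in the vehicle mice. The 3 FGF1 mice were all above the 3 vehicle mice, and the log2 fold change was 2.17 ± 0.37 (SE, FDR 0.0393 in edgeR). Zmym1 stood at 341, 141 and 189 with FGF1 and at 18.2, 38.3 and 37.0 with vehicle, again without overlap (log2 fold change 2.87 ± 0.44, FDR 0.0393 in edgeR). For S100a10 the FGF1 values were 136, 70.6 and 54.1 and the vehicle values 0, 4.79 and 9.26. Only 3 S100a10 UMIs were counted in all vehicle mice, so its ratio of 19.4 had an exact 95% interval of 6.32 to 97.1, which covers counting error only. Serpina3n stood at 92.5, 150 and 54.1 with FGF1 and at 0, 9.57 and 13.9 with vehicle (log2 fold change 3.73 ± 0.62, FDR 0.0393 in edgeR). Near-identical Serpina3 copies next to Serpina3n can take its reads, and Stat3 overlaps Stat5a on the other strand, so both values carry that uncertainty.

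The same 4 genes stood higher in other nuclei of the same FGF1 mice. In unmapped neurons Zmym1 was at 384, 148 and 271 CPM with FGF1 and at 33.8, 56.1 and 40.8 with vehicle, an order of mice like that in OPC/COP nuclei. Stat3 there was at 101, 150 and 118 against 44.2, 36.9 and 53.4. In astrocyte nuclei Serpina3n reached 755, 1064 and 602 against 9.14, 28.2 and 37.1, and the FGF1 levels there were above those in OPC/COP nuclei. In a test of the difference between the effects, with mouse as a block, none of the 4 genes passed in OPC/COP nuclei against oligodendrocytes, astrocytes or unmapped neurons. Neuron markers took 145 to 153 of 10000 UMIs in the OPC/COP nuclei of the FGF1 mice and 154 to 201 in those of the vehicle mice, and astrocyte markers 4.33 to 7.40 and 6.09 to 7.91. In the 331 nuclei of lower neuron-marker share 3 of the 4 could be tested and none was called (edgeR, with 177 genes at an unadjusted p below 0.05), at log2 fold changes of 2.82 for Zmym1, 3.41 for Serpina3n and 2.30 for Stat3 (FDR 0.172, 0.109 and 0.109). The part of astrocyte RNA was not tested. On Day 5 Zmym1 and Stat3 were tested and not called, and Serpina3n and S100a10 were too low for the fit. Stat3 then stood at 32.1 and 45.4 with FGF1 and at 57.6 and 48.0 with vehicle, with the FGF1 mice inside the range of the Day 1 vehicle mice.

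**Figure D1:**
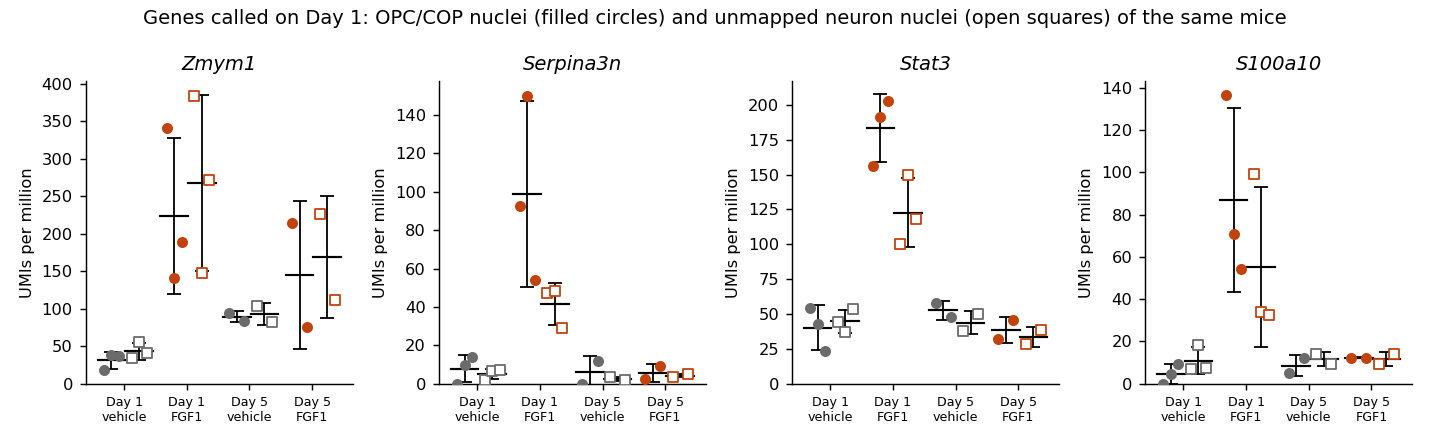
CPM (UMIs per 1000000, vertical axis, from 0) of Zmym1, Serpina3n, Stat3 and S100a10 in each mouse, by day and treatment, with FGF1 in orange and vehicle in grey. Filled circles are OPC/COP nuclei and open squares unmapped neuron nuclei, with mean and SD (n = 3 mice a group on Day 1, 2 on Day 5). On Day 1 the FGF1 mice lie above the vehicle mice in both kinds of nuclei, for Stat3 between 156 and 203 in OPC/COP nuclei.

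The Day 1 calls depended on single mice. In edgeR 0 genes were called when vehicle mouse 1, 2 or 3 was left out (149, 421 and 266 at an unadjusted p below 0.05), and 21 genes were called without FGF1 mouse 1, 1 without FGF1 mouse 2 and 3 without FGF1 mouse 3. With the replicate number or the authors' batch as a block, 0 genes were called, while 193 and 175 genes had an unadjusted p below 0.05. In the nuclei of lower neuron-marker share and in thinned nuclei 0 were called as well (177 and 93 at an unadjusted p below 0.05 in edgeR). Only 1493 genes could be tested in thinned nuclei. Of the 4 called genes only Stat3 was among them, at a log2 fold change of 2.46 (FDR 0.328 in edgeR). DESeq2 called 5 genes, of which 1 was among the 4.

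Just outside the threshold lay 2 genes whose effect in OPC/COP nuclei differed from that in some of the other nuclei. Rgs20, a regulator of G protein signalling, stood at 219, 424 and 554 CPM with FGF1 and at 77.2, 86.2 and 134 with vehicle (log2 fold change 1.98 ± 0.36, FDR 0.0636 in edgeR). Its effect was 1.18 ± 0.23 log2 units larger than in unmapped neurons (FDR 0.00319 in edgeR). Oxr1, an oxidation resistance gene, stood at 633, 953 and 1055 against 404, 287 and 338 (log2 fold change 1.36 ± 0.26, FDR 0.0845 in edgeR), without overlap between the groups. Its effect was 0.87 ± 0.20 larger than in oligodendrocytes (FDR 0.0131 in edgeR) and 0.78 ± 0.17 larger than in unmapped neurons (FDR 0.00867 in edgeR). Neither gene was called against astrocytes, and Rgs20 was not called against oligodendrocytes.

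The comparison of the Day 1 effect between cell types, which uses both types of the same 6 mice, called 6 of 5840 genes against oligodendrocytes (percent called 0.103), 4 with a higher effect in OPC/COP nuclei (0.0685) and 2 with a lower one (0.0342). It called 9 of 11264 against unmapped neurons (0.0799), 8 higher (0.071) and 1 lower (0.00888). Against astrocytes 1 of 5970 was called (0.0168), the unannotated A330033J07Rik, with a difference of 3.25 ± 0.58. In OPC/COP nuclei its mean was lower with FGF1, at 41.4 against 89.8 CPM, so the positive difference is not a rise there. Lhfpl3, an OPC membrane protein gene, stood at 1782, 2668 and 3732 CPM with FGF1 and at 1644, 991 and 1421 with vehicle, above all vehicle mice in each FGF1 mouse. Its effect was larger than in oligodendrocytes (difference 1.03 ± 0.17, FDR 5.28e-06 in edgeR) and than in unmapped neurons (0.69 ± 0.14, FDR 0.00319 in edgeR), although within OPC/COP nuclei alone its FDR was 0.492. The next 5 genes are named because they were called, after their values were seen. Gpc5, a heparan sulfate proteoglycan gene, and Cdh19, a cadherin gene, differed in the same direction from both types, by 1.06 ± 0.17 and 1.28 ± 0.26 against oligodendrocytes. Nckap5, Il1rap and Fign differed from unmapped neurons by 0.88, 0.99 and 1.08. Nnat, an imprinted gene of developing neurons, was the lower gene against both types (-1.005 ± 0.230 and -0.92 ± 0.20). Bcas1 was the other gene with a lower effect than in oligodendrocytes (-1.64 ± 0.35, FDR 0.0131 in edgeR). In OPC/COP nuclei it was at 248, 121 and 298 against 282, 134 and 148, with the groups overlapping. In oligodendrocyte nuclei it was at 99.2, 212 and 144 against 52.2, 36.3 and 61.0, without overlap. The count against oligodendrocytes was 2 without vehicle mouse 1 and 3 without vehicle mouse 2. Against unmapped neurons it was 1 without FGF1 mouse 3 or vehicle mouse 2, 3 without FGF1 mouse 2 and 4 without vehicle mouse 1 or 3. Against astrocytes it was 3 without FGF1 mouse 1, 4 without vehicle mouse 3 and 0 in edgeR without FGF1 mouse 2, FGF1 mouse 3 or vehicle mouse 1 (357, 341 and 306 genes at an unadjusted p below 0.05).

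Apart from Stat3, Serpina3n and S100a10, no gene of the fixed lists was called on Day 1. Of the OPC markers 10 were tested, 8 fitted higher and 0 were called, with a median log2 fold change of 0.33 against 0.02 over all genes tested. Of the COP markers 6 were tested and 0 called (median 0.09), and of the oligodendrocyte markers 7 were tested, 6 fitted lower and 0 called (median -0.29). The 4 feedback genes of the FGF-MAPK path that could be tested all fitted higher and 0 were called (median 0.74). Among them Spred1, an inhibitor of Ras signalling, stood at 92.5, 171 and 135 against 68.1, 52.6 and 78.7 (log2 fold change 1.03 ± 0.35, FDR 0.601 in edgeR), without overlap. Id2, an inhibitor of basic helix-loop-helix factors that slows differentiation, stood at 219, 144 and 108 against 59.1, 62.2 and 46.3, also without overlap (1.56 ± 0.36, FDR 0.206 in edgeR). Egr1, an immediate early gene, was too low for the fit, with 18 UMIs in all in the FGF1 mice and 0 in the vehicle mice, which made it at least 6.25-fold higher against a floor of 3 UMIs over the vehicle group. Vim, which encodes vimentin, was also too low, at 68.2, 64.7 and 40.6 CPM against 9.09, 14.4 and 13.9, without overlap. Of 64 cytosolic ribosomal protein genes tested, 62 fitted higher and 0 were called (median 0.45). Their sum over all 81 measured was 185, 85.4 and 77.8 of 10000 UMIs with FGF1 and 67.1, 121 and 80.9 with vehicle, so FGF1 mouse 1 stood apart and the other FGF1 mice lay within the vehicle range.

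On Day 5 genes of the committed stage were among those higher with FGF1. Of 5767 genes tested, 74 were called (percent called 1.28), 49 of them higher with FGF1 (0.85) and 25 lower (0.434). Among the higher genes were 7 of the 10 COP markers that could be tested (Bmp4, Bcas1, Enpp6, Fyn, Tns3, Sirt2 and Tcf7l2) and 4 of the 7 oligodendrocyte markers, among them Mbp, Mag and Cldn11. A member could pass the low-count filter through the FGF1 mice alone, as Bmp4 and Mag did, so the sums over whole lists are given beside these counts. Summed over the 12 COP markers, the FGF1 mice stood at 34.0 and 46.8 of 10000 UMIs, the Day 5 vehicle mice at 8.70 and 9.71 and the 6 mice of Day 1 between 9.43 and 13.0. Summed over the 12 oligodendrocyte markers, the FGF1 mice stood at 19.0 and 30.3, the Day 5 vehicle mice at 7.80 and 2.76 and the mice of Day 1 between 7.68 and 13.0. The part of RNA from other cells in this sum was not tested. Of the 12 members of each list, 2 COP markers and 5 oligodendrocyte markers were too low to be tested. These lists were written with earlier results of the same mice known, so they are not independent evidence of the direction. Among the called genes named here, Bmp4, Mag, Cldn11, Tcf7l2, Cnksr3, Tnr and Plxnb3 were not called without FGF1 mouse 45. Without vehicle mouse 28 Bmp4, Cnksr3, Kif19a, Elovl7, Rhbdl2, Cox6a1, Cox8a, Ly6h, Fth1 and Rabac1 were not called. Other called genes lost their call in both fits as well, and each of these fits left 1 mouse in an arm. DESeq2 called 39 genes (33 higher, 6 lower). In the nuclei of lower neuron-marker share vehicle mouse 38 gave 6 nuclei, under the 10 required, and was left out. That fit held 2 FGF1 mice and 1 vehicle mouse. Of the 74 genes 65 could be tested there, and all 65 kept their direction.

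Promoters of 3 called genes are shown. Those of Enpp6 and Sirt2 were taken because these genes were higher with FGF1 in both mice. That of Mag, whose change rests on 1 vehicle UMI, was taken because it holds the letters marked. The promoters are RefSeq windows of 300 bases on GRCm38.p6 from 250 bases before to 50 after a gene start. The letters ACAAAG on either strand, the core that SOX factors such as Sox10 bind, are in capitals. Mag encodes a myelin adhesion protein.
Mag, chr7:30914814-30915113, minus strand: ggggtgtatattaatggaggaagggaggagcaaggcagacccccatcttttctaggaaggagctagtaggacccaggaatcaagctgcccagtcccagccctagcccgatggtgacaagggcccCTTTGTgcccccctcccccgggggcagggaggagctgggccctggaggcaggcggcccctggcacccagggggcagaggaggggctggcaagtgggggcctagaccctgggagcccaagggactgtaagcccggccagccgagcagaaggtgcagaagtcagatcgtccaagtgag
Sirt2, chr7:28766502-28766801, plus strand: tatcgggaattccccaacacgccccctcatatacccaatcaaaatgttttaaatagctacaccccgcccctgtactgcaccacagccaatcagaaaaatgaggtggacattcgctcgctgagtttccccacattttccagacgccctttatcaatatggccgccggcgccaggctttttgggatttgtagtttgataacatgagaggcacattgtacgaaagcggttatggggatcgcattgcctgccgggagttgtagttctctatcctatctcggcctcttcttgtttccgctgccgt
Enpp6, chr8:46986637-46986936, plus strand: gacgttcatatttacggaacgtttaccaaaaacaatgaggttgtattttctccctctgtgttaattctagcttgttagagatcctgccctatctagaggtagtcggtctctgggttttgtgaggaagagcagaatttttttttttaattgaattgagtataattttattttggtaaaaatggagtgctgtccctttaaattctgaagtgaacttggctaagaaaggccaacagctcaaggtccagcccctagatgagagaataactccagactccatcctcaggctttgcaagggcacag
In Mag the letters stood on the reverse strand with their first base 126 bases before the start, and the Enpp6 and Sirt2 windows did not hold them. They occurred in 18.7% of all 32851 promoter windows. Of the 10 higher genes named by size of change, 8 had windows, 14 in all because Mag and other genes have several starts, and 5 of the 14 windows (3 genes) held the letters. The letters TTCNNNGAA, a STAT motif, were also searched and are not marked above. They stood in 3 of the 14 windows, all of Mag and the printed window among them, and in 8.3% of all windows. The Mag windows overlap each other in part, and a match is a description of sequence only.

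Enpp6 (chr8:46986887-47096762, plus strand, GRCm38) was higher with FGF1 on Day 5. It stood at 190 and 319 CPM in FGF1 mice 37 and 45 and at 15.7 and 12.0 in vehicle mice 28 and 38, a log2 fold change of 4.12 ± 0.53 (FDR 2.26e-05 in edgeR). The FGF1 values also lay above all 6 mice of Day 1, which ran from 9.74 to 81.1. In unmapped neurons of the 4 Day 5 mice Enpp6 was at 3.67, 4.20, 2.47 and 5.64, with the groups overlapping.

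St18 (chr1:6487231-6860940, plus strand, GRCm38) gave the smallest FDR of the higher genes. This zinc finger transcription factor, known from oligodendrocyte differentiation, stood at 803 and 919 with FGF1 and at 110 and 48.0 with vehicle (log2 fold change 3.28 ± 0.33, FDR 6.89e-07 in edgeR). Fyn, a Src-family kinase that promotes myelination, stood at 946 and 1187 against 152 and 264 (2.47 ± 0.30, FDR 1.24e-05 in edgeR). Sirt2, a tubulin deacetylase abundant in this lineage, stood at 509 and 856 against 115 and 71.9 (2.77 ± 0.34, FDR 1.24e-05 in edgeR). In each of these the FGF1 mice were far above both vehicle mice, and in unmapped neurons of the same mice the levels were flat: St18 was at 52.8 and 57.7 against 57.8 and 69.6 and Sirt2 at 55.0 and 69.7 against 49.98 and 56.4. Oligodendrocyte nuclei carried these genes too. Over all mice 74.8% of them held St18, 27.5% Fyn and 29.6% Sirt2, against 50.3%, 63.4% and 55.1% of OPC/COP nuclei.

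Bcas1 stood at 724 and 892 with FGF1 and at 157 and 95.9 with vehicle (log2 fold change 2.58 ± 0.30, FDR 1.02e-05 in edgeR). It overlaps 2 antisense genes, one of which, Bcas1os2, named after its value was seen, was also called, and reads of such partners could not be told apart where strand was not stated. Mbp stood at 583 and 1004 against 194 and 95.9 (2.33 ± 0.33, FDR 0.000113 in edgeR), without overlap. In oligodendrocyte nuclei of the same mice Mbp was flat, at 594 and 593 against 552 and 608, so the level in OPC/COP nuclei of FGF1 mice came to that of oligodendrocytes or above it. Epb41l2, a membrane skeleton gene, and Chn2, a Rac regulator, were also higher, by 2.83 ± 0.35 and 3.28 ± 0.55 (FDR 1.24e-05 and 0.00169 in edgeR).

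Nfasc and Cldn11 were also higher. Nfasc, a node and paranode adhesion gene, stood at 591 and 822 CPM with FGF1 and at 194 and 108 with vehicle (log2 fold change 2.12 ± 0.30, FDR 0.000113 in edgeR). Cldn11, the tight junction claudin of myelin, stood at 84.0 and 175 against 31.4 and 0 (2.62 ± 0.61, FDR 0.0270 in edgeR). In both the FGF1 mice were above the vehicle mice, and vehicle mouse 38 was the lowest.

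Several of the largest changes rest on vehicle counts near 0. Mag was counted 116 times in FGF1 nuclei and 1 time in vehicle nuclei, a ratio of 29.8 with an exact interval of 5.25 to 1189. Bmp4 had 82 and 3 UMIs (ratio 7.03, interval 2.32 to 34.8), and Cnksr3, a kinase scaffold gene, 103 and 1 (ratio 26.5, interval 4.65 to 1057). Kif19a, a ciliary kinesin gene, and Elovl7, a fatty acid elongase gene, had 1 vehicle UMI each, with ratios of 20.6 and 20.3. Rhbdl2, a rhomboid protease gene, had 74 UMIs with FGF1 and 0 with vehicle, at least 6.35-fold higher against a floor of 3 UMIs over the vehicle group. The intervals cover counting error only, and the vehicle group held 69 nuclei against 287. The vehicle means of Mag and Cnksr3 were higher on Day 1, at 41.9 and 32.7 CPM against 2.62 and 5.995 on Day 5. Those of Kif19a and Elovl7 were too, at 23.1 and 26.5 against 5.995 for both. That of Bmp4 was lower on Day 1, at 7.69 against 11.2.

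**Figure D2:**
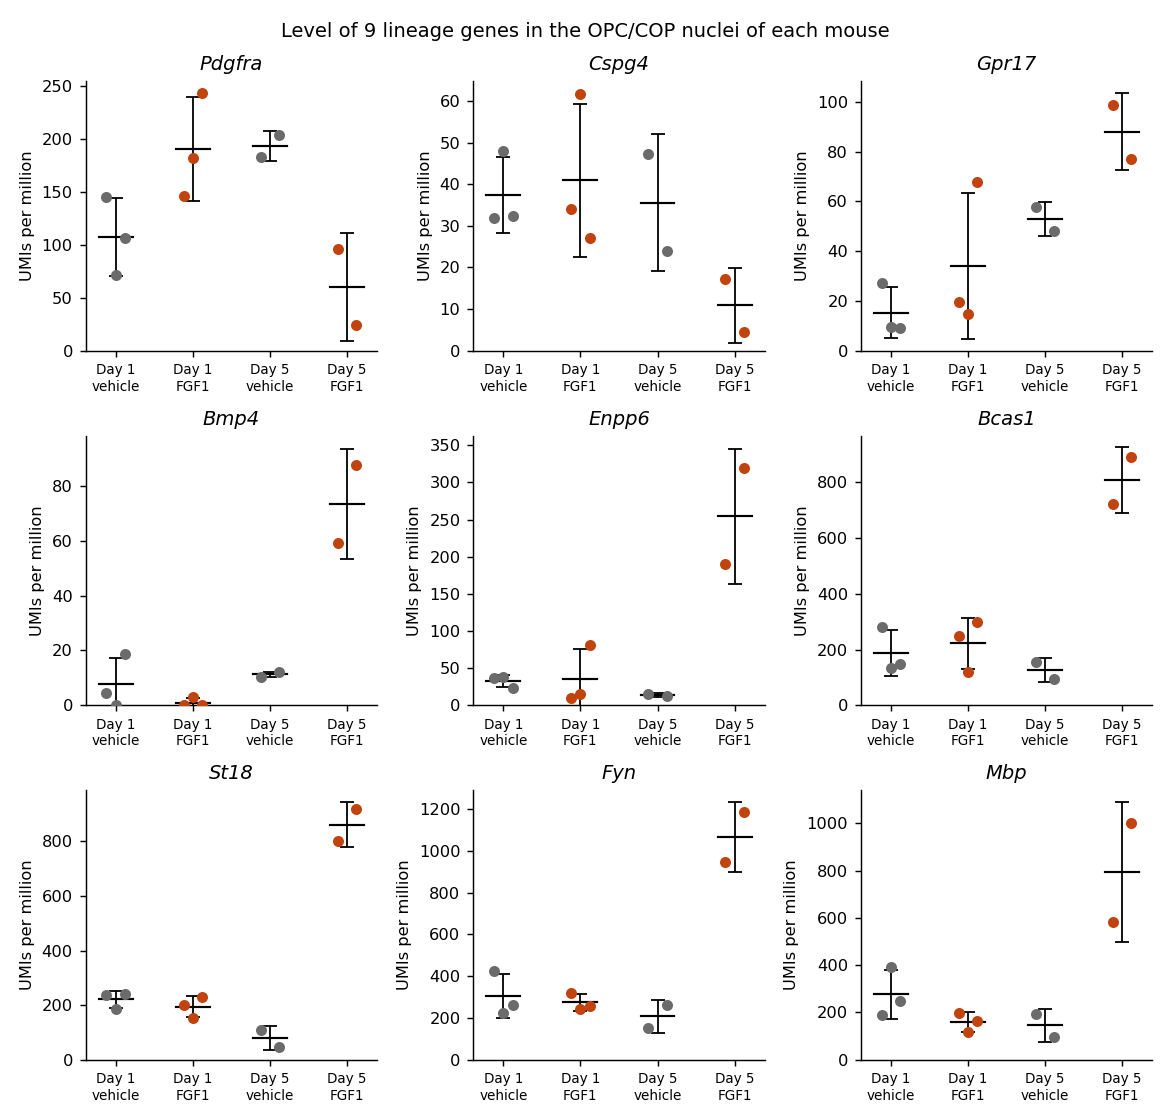
CPM (UMIs per 1000000, vertical axis, from 0) of 9 lineage genes in the OPC/COP nuclei of each mouse, by day and treatment, with mean and SD (n = 3 mice a group on Day 1, 2 on Day 5). FGF1 mice are orange and vehicle mice grey. The Day 5 FGF1 mice stand above every other mouse for Bmp4, Enpp6, Bcas1, St18, Fyn and Mbp, as with 803 and 919 for St18.

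The precursor genes did not follow. Of 11 OPC markers tested on Day 5, 9 fitted lower and 1 was called, Tnr, which was higher (median of the list -0.65). Summed over all 15 OPC markers, the groups overlapped, at 75.6 and 64.3 of 10000 UMIs with FGF1 and 81.1 and 69.9 with vehicle. That sum includes Tnr, which was higher with FGF1, so it does not show whether the other markers overlapped. No sum without Tnr was made. At an unadjusted p below 0.05 in edgeR, 5 of the 11 tested were lower and 1 was higher. Pdgfra stood at 96.4 and 24.2 with FGF1 and at 183 and 204 with vehicle, without overlap, and missed the threshold (log2 fold change -1.78 ± 0.47, FDR 0.0726 in edgeR). It was called without FGF1 mouse 37 and without either vehicle mouse. Tnr encodes tenascin-R, a matrix protein of both precursors and oligodendrocytes, and stood at 2323 and 2744 against 1137 and 803 (1.36 ± 0.27, FDR 0.00527 in edgeR). Gpr17, the usual marker of COPs, stood at 98.8 and 77.1 against 57.6 and 48.0 and was not called (0.67 ± 0.43, FDR 0.672 in edgeR). Gpr17 lies within Lims2 on the opposite strand, so its reads may be shared. Cspg4 was too low for the fit, at 17.3 and 4.53 against 47.1 and 24.0.

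Of the 12 lineage regulators tested on Day 5, St18 and Tcf7l2, a Wnt effector that drives differentiation, were called higher. Of the 12, 6 fitted lower, and 0.85% of all 5767 genes tested were called higher. Sox10 stood at 151 and 281 against 141 and 156 and was not called (FDR 0.600 in edgeR). Among 17 surface and secreted OPC genes, Tnr, the semaphorin Sema5a and the plexin Plxnb3 were called higher, against 0.85% of all genes tested. The 5 FGF-MAPK feedback genes tested gave 4 lower fits and 0 calls (median -0.86). The 2 cell cycle genes tested gave 0 calls, and 18 of that list were too low to be tested. Neuron markers gave 0 calls of 9 (median -0.08), astrocyte markers 0 of 6. The neuron marker sums overlapped between the groups, at 176 and 201 of 10000 UMIs with FGF1 and 174 and 195 with vehicle.

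The 25 lower genes included Nnat, the respiratory chain genes Cox6a1 and Cox8a, Ly6h, Fth1 and Rabac1. Nnat stood at 116 and 184 with FGF1 and at 1095 and 971 with vehicle (log2 fold change -2.75 ± 0.27, FDR 5.99e-07 in edgeR). In unmapped neurons of the same mice it was at 88.3 and 92.1 against 490 and 242, and in oligodendrocytes at 116 and 108 against 509 and 387. Cox6a1 likewise was at 19.8 and 18.1 against 210 and 108 in OPC/COP nuclei and at 26.2 and 16.5 against 188 and 41.4 in unmapped neurons. Both genes were thus lower in the FGF1 mice in the other nuclei named as well. Cox8a overlapped between the groups on Day 5, at 37.1 and 18.1 against 351 and 36.0, and varied among the Day 1 FGF1 mice from 638 to 35.3 and 0. In 1 fit over all 10 mice 27 genes were called on Day 5, of which 0 were lower. Whether these 25 results are particular to OPC/COP nuclei was not tested on Day 5.

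The share of nuclei that held Enpp6 showed the Day 5 difference nucleus by nucleus. It was 43.5% (37 of 85 nuclei, exact 95% interval 32.8 to 54.7) and 58.9% (119 of 202, 51.8 to 65.8) in the FGF1 mice of Day 5. In the vehicle mice it was 5.77% (3 of 52, 1.21 to 15.9) and 5.88% (1 of 17, 0.149 to 28.7), close to the 6 mice of Day 1, which ran from 2.94% to 11.9%. With every nucleus thinned to 1500 UMIs, the FGF1 shares were 25.9% and 41.8%. The vehicle shares were then 0 of 52 and 0 of 17 nuclei, where a limit of 3 counts allows shares of nuclei with a UMI of up to 5.77% and 17.6%. In oligodendrocyte nuclei of the same mice the unthinned shares were 6.19% and 4.01% with FGF1 and 5.49% and 6.45% with vehicle, so the difference was not seen there. With 2 mice against 2, an exact permutation test cannot go below p = 0.333, and no test was made of this share.

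The share of nuclei with Pdgfra was the reverse. Such a share does not tell fewer nuclei with Pdgfra from more nuclei without it. By count, Pdgfra was found in 27 of 85 and 13 of 202 nuclei of FGF1 mice 37 and 45 of Day 5. In vehicle mice 28 and 38 it was found in 27 of 52 and 10 of 17. On Day 5 nuclei with Pdgfra thus made up 31.8% and 6.44% of OPC/COP nuclei in FGF1 mice 37 and 45 and 51.9% and 58.8% in the vehicle mice. At 1500 UMIs the means were 9.43% ± 8.29 (SD, n = 2) with FGF1 and 31.1% ± 2.32 (n = 2) with vehicle, a difference of -21.6 percentage points (exact two-sided permutation p = 0.333, the smallest the design allows, adjusted p = 0.500 over 6 tests). Mouse 45 was the farther from vehicle in both genes, with 55.4% of nuclei holding Enpp6 without Pdgfra and 2.97% holding Pdgfra without Enpp6. The share with Gpr17 was 13.4% ± 0.590 with FGF1 and 7.75% ± 2.64 with vehicle (n = 2 each, exact permutation p = 0.333, adjusted p = 0.500). Without thinning the Gpr17 shares overlapped, at 30.6% and 21.8% with FGF1 and 15.4% and 23.5% with vehicle, and the direction turned in batch 2. On Day 1 neither difference exceeded the spread between mice, at 26.3% ± 6.26 against 22.5% ± 10.8 for Pdgfra (n = 3 each, exact permutation p = 0.600) and 3.75% ± 1.57 against 2.82% ± 2.50 for Gpr17 (p = 0.700, exact permutation).

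**Figure D3:**
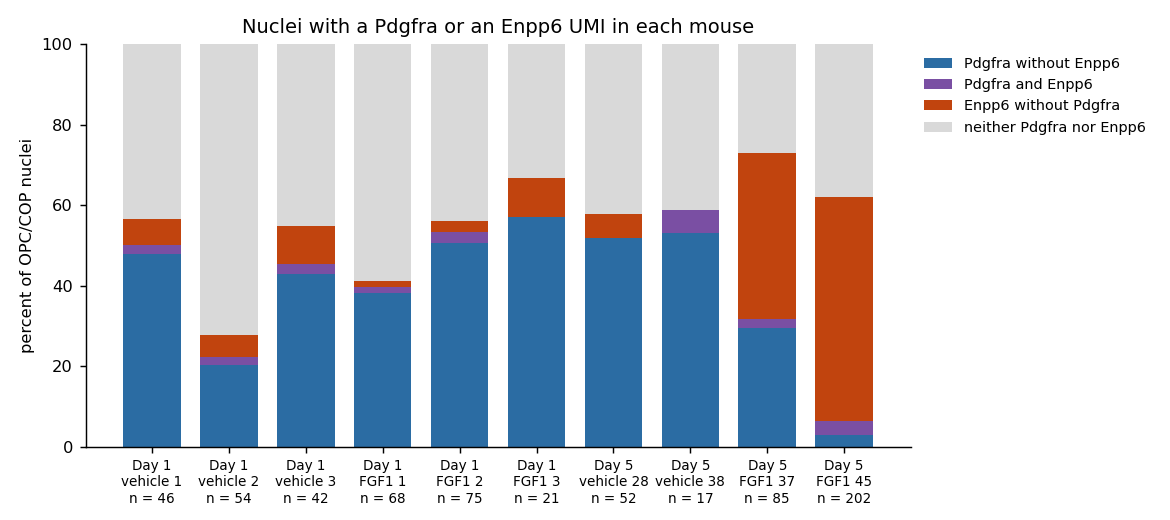
Percent of OPC/COP nuclei (vertical axis) in each of the 10 mice that held a UMI of Pdgfra without Enpp6 (blue), both (purple), Enpp6 without Pdgfra (orange) or neither (grey), with nuclei not thinned and their number under each bar. Enpp6 without Pdgfra makes up 41.2% and 55.4% in the FGF1 mice of Day 5 and at most 9.52% in the other 8 mice.

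The Day 5 difference was not confined to nuclei in which Enpp6 was seen. In nuclei without an Enpp6 UMI, St18 stood at 373 and 925 CPM in FGF1 mice 37 and 45 and at 76.8 and 52.3 in the vehicle mice. Sirt2 stood at 238 and 728 against 54.9 and 52.3, and Mbp at 247 and 933 against 104 and 91.6. Both FGF1 mice were above both vehicle mice in each, and mouse 45 was again the higher. These nuclei were picked by a gene that itself differed, so the values are a description. A nucleus without an Enpp6 UMI can also hold Enpp6 RNA that was not counted. The split therefore cannot tell whether nuclei lacking Enpp6 RNA differed.

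Whether the FGF1 effect differed between the days was tested directly over the 4 groups of nuclei. Of 5875 genes tested, 6 were called (percent called 0.102), and in all 6 the effect was higher on Day 5. Among them the largest difference was that of St18, at 3.51 log2 units (FDR 0.000765 in edgeR). Gm13052, an unannotated RNA gene, followed with 3.23 (FDR 0.0329), Mbp with 3.13 (0.0153), Epb41l2 with 2.70 (0.0232), Sirt2 with 2.65 (0.0153) and Fyn with 2.56 (0.0182, all in edgeR). St18 was at 200, 153 and 230 with FGF1 and at 236, 187 and 241 with vehicle on Day 1, with the groups overlapping, and on Day 5 they did not overlap. For Enpp6 the difference was 4.58 and missed the threshold (FDR 0.0617 in edgeR), for Bcas1 2.43 (FDR 0.132) and for Pdgfra -2.52 (FDR 0.212). For Stat3, which was called on Day 1, the difference was -2.64 (FDR 0.132 in edgeR). In all 6 called genes the vehicle mean was also lower on Day 5 than on Day 1, as 79.0 against 221 CPM for St18 and 145 against 278 for Mbp. The FGF1 means of these 2 genes were higher on Day 5, at 861 against 194 and 793 against 160. How far the vehicle mice made the differences was not tested. The count of genes called was 1 without FGF1 mouse 45 of Day 5 or without FGF1 mouse 2 of Day 1, 2 without vehicle mouse 1 of Day 1, 17 without FGF1 mouse 37 and 22 without FGF1 mouse 1 of Day 1. St18 was called in all 13 of its alternatives.

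**Figure D4:**
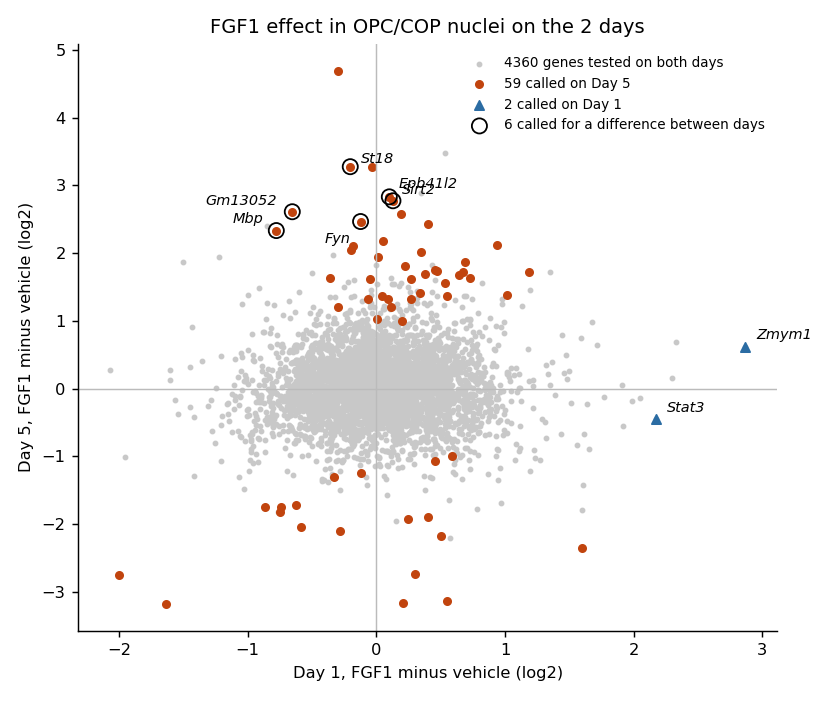
Log2 fold change of FGF1 over vehicle in OPC/COP nuclei on Day 1 (horizontal axis) and Day 5 (vertical axis) for the genes tested on both days (grey), with those called on Day 5 (orange), those called on Day 1 (blue triangles) and those called for a difference between the days (black rings). The 6 ringed genes lie near 0 or below it on Day 1 and above 2 on Day 5, as St18 with 3.28.

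The share of OPC/COP nuclei among all nuclei was not shown to differ between the groups. On Day 1 it was 2.07% ± 0.814 with FGF1 and 3.33% ± 0.819 with vehicle (n = 3 each, exact two-sided permutation p = 0.200, where 0.1 is the smallest possible). On Day 5 it was 3.67% ± 0.234 and 2.26% ± 0.878 (n = 2 each, exact permutation p = 0.333, the smallest possible). The adjusted p was 0.500 for both over 6 tests. Each of the 5 batches named in the annotation held 1 FGF1 and 1 vehicle mouse, and the share was lower with FGF1 in the 3 batches of Day 1 and higher in the 2 of Day 5. Among non-neuronal nuclei alone, batch 4 of Day 1 gave 16.7% with FGF1 and 16.5% with vehicle, and the other 4 batches kept these directions.

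The whole cells of Day 5 gave a look at the same stage in other mice and with neurons removed. Their clusters carry numbers only. Clusters 5 and 9 were examined because cluster 5 carried the OPC markers (93.8 of 10000 UMIs) and cluster 9 the COP markers (187 of 10000) and oligodendrocyte markers (379). Neuron markers took 14.8 and 5.17 of 10000 UMIs there, against 176 in OPC/COP nuclei. The measures below were chosen after the nuclei had been analysed. The pooled cells lay in different clusters by group, since an FGF1 mouse gave 90 to 410 cells of cluster 5 and 174 to 372 of cluster 9 and a vehicle mouse 231 to 701 and 16 to 51, so a pooled share carries the mix of the clusters. Over both clusters pooled, with each cell thinned to 750 UMIs, cells with Enpp6 made up 15.6% to 30.3% (median 20.6%) in the FGF1 mice and 0.956% to 2.82% (median 1.91%) in the vehicle mice. The means were 21.7% ± 5.19 and 1.97% ± 0.767 (SD, n = 6 mice each, exact two-sided permutation p = 0.002165, the smallest possible, adjusted p = 0.00271 over 5 tests).

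The other 4 genes differed as well. Bmp4 was found in 13.4% ± 5.14 against 1.19% ± 0.949 of cells and Bcas1 in 50.3% ± 8.996 against 19.0% ± 1.90 (n = 6 mice each, exact permutation p = 0.002165 for both), without overlap between mice. Gpr17, which was not called in the nuclei, was found in 55.7% ± 8.35 against 40.5% ± 4.37 (n = 6 each, exact permutation p = 0.00649), with 2 FGF1 mice below the highest vehicle mouse. Pdgfra was found in 27.2% ± 6.36 against 52.6% ± 4.40 (n = 6 each, exact permutation p = 0.002165). All 6 batches, each of 1 FGF1 and 1 vehicle mouse, gave the same direction for all 5 genes. Neither these permutation tests nor the fits within clusters given below used the batches as pairs. With clusters 17, 2, 11 and 12 added to the pool, the Pdgfra difference fell to -2.23 percentage points (exact permutation p = 0.5216, n = 6 each). The other 4 genes kept their direction and their call. The differences of Enpp6, Bmp4 and Bcas1 fell from 19.7, 12.2 and 31.3 percentage points to 9.34, 6.29 and 16.1. That of Gpr17 went from 15.3 to 14.8.

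**Figure D5:**
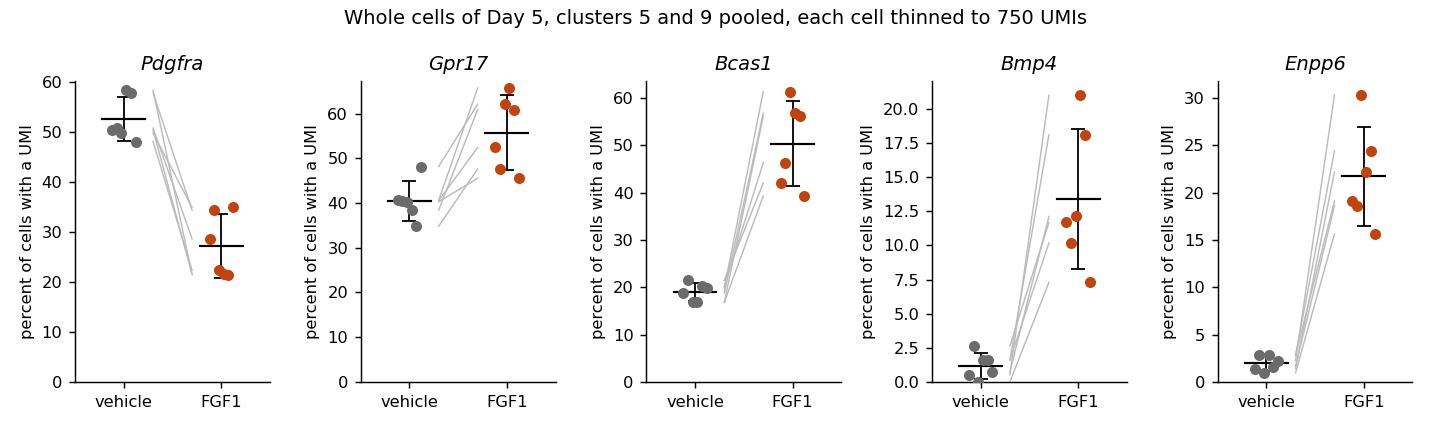
Percent of whole cells of clusters 5 and 9 with a UMI of Pdgfra, Gpr17, Bcas1, Bmp4 or Enpp6 (vertical axes, from 0) in each of 6 FGF1 and 6 vehicle mice of Day 5, with mean and SD and grey lines joining the 2 mice of a batch. The means for Enpp6 are 21.7% and 1.97%, and every line rises for Gpr17, Bcas1, Bmp4 and Enpp6 and falls for Pdgfra.

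Within each cluster taken alone, some of the lineage genes were called. In cluster 9, 52 of 4171 genes were called (percent called 1.25), 31 higher (0.743) and 21 lower (0.503), where DESeq2 gave 29 higher and 63 lower. Sirt2 was higher, at 5188 to 7367 CPM (mean 6399 ± 882) with FGF1 and 3722 to 4304 (mean 4064 ± 229) with vehicle (n = 6 each). Its log2 fold change was 0.71 (FDR 0.000518 in edgeR), where the nuclei gave 2.77. Bcas1 (0.56, FDR 0.0172), Fyn (0.52, FDR 0.0279) and Tmem108 (0.58, FDR 0.0277), a membrane protein gene, were also called there in edgeR, while St18 (0.20, FDR 0.852), Enpp6 (0.41, FDR 0.199) and Mbp (0.47, FDR 0.287) were not. Mag, Cnksr3, Kif19a and Elovl7, higher in the nuclei, had lower mean CPM with FGF1 in cluster 9. The means were 582, 108, 123 and 194 with FGF1 and 793, 140, 160 and 240 with vehicle. Rhbdl2 had a higher mean (67.97 against 35.15), and in each of these genes the groups overlapped. Of the 49 genes called higher in the Day 5 nuclei, 47 were tested in cluster 9, 35 fitted higher, 6 were called higher and 0 lower, against 0.743% of all genes tested there that were called higher. In cluster 5, 30 of them were tested, 14 fitted higher and 2 were called higher, against 1.2% of all genes tested there. Of the 25 genes called lower in the nuclei, 16 were tested in cluster 9, where 12 fitted lower. Ramp1 was called lower there, against 0.503% of all genes tested. In cluster 5, 18 of the 25 were tested and 14 fitted lower. Nnat was not lower by its mean in cluster 5, at 1301 ± 760 CPM with FGF1 and 1092 ± 267 with vehicle (SD). Cox6a1 was called lower there, against 1.18% of all genes tested.

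In cluster 5, the precursor-marked cells, S100a10, S100a6, Vim and Egr1 were higher with FGF1. Of 5235 genes 125 were called (percent called 2.39), 63 higher (1.2) and 62 lower (1.18), where DESeq2 gave 84 higher and 42 lower. S100a10 was higher, with a mean of 129 ± 34.3 CPM against 49.0 ± 8.12 (n = 6 each, log2 fold change 1.36, FDR 1.24e-06 in edgeR). S100a6, a calcium-binding partner of the same family, was higher by 0.78 (FDR 2.62e-05) and Vim, the intermediate filament vimentin, by 1.94 (FDR 1.23e-08, both in edgeR), and Egr1 by 1.06 (FDR 0.0313 in edgeR). In the Day 5 nuclei S100a10 had 13 and 2 UMIs with FGF1 and vehicle, too few for the fit. In cluster 5 neuron markers took 12.1 to 13.7 of 10000 UMIs with FGF1 and 14.9 to 16.8 with vehicle, without overlap, and microglia markers 1.97 to 4.96 and 1.34 to 2.26, and their part in these changes was not tested. Pdgfra was not called within cluster 5 (log2 fold change 0.17, FDR 0.410 in edgeR).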

How the data were processed

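Single nuclei of 10 mice and whole cells of 12 mice were measured by droplet RNA sequencing (10x, 3′ ends). Per the methods, the authors made the deposited UMI counts with Cell Ranger 1.2 on GRCm38 (mm10), with introns included for the nuclei, and clustered them in Seurat, after integrating the samples of the nuclei alone. The counts used here are raw, and the labels of the nuclei come from corrected values. The authors kept barcodes by genes detected and by the share of mitochondrial and/or ribosomal RNA. They removed doublets from the whole cells with Scrublet and removed neurons from them. Strand-specific counting is not given in the sources used here, nor is what a batch number stands for. The deposited normalized values were not used.

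The OPC/COP nuclei are those with the deposited label COP (662). Their counts were summed per mouse and tested with edgeR 4.0.16 (R 4.3.3): filterByExpr, TMM factors and robust quasi-likelihood fits, each day alone, both days with an interaction, and OPC/COP against another type with mouse as a block. Benjamini-Hochberg FDR below 0.05 was called. Each mouse gave 1 library, so the spread is between mice. Shares of nuclei were compared over mice by exact two-sided permutation tests after thinning to 1500 UMIs (11 nuclei were shallower, and 750 UMIs served for whole cells). Genes named were those called (the 10 largest by fold change where over 15 were called in a direction), the 8 of smallest p per direction and day, the called and the 4 most abundant members of each list, 4 defining markers and the 15 leading genes of the label. Exact Poisson and binomial intervals (95%) cover counting error only. Fits and permutation tests were tested on simulated data. Members and lists were chosen with earlier results of these data known.

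Alternatives were DESeq2 1.42.0, RLE factors, no low-count filter, each mouse left out, all mice in 1 fit, blocks, thinned nuclei, and nuclei chosen by neuron RNA or by markers. Replicate numbers 1 to 3 of Day 1 did not pair the mice. 1 gene of the oligodendrocyte marker list is not reported here.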

Additional observations from a re-analysis of the deposited data

Results flagged for a closer look

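In whole cells of Day 5, a single FGF1 mouse, mouse 6, stood far from the other 5 of its group for 3 values. They were Serpina3n in cluster 5 at 156.4 CPM, Serpina3n in cluster 9 at 58.35 CPM and Pdgfra in cluster 9 at 23.34 CPM. In all 42 groups of 6 were examined and 3 had such a mouse, and chance alone gives about 1 in 20.

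The FGF1 effect differed between the days for 6 genes of the OPC/COP nuclei, each larger on Day 5 in edgeR's interaction test. The log2 differences were 3.5131 for St18, 3.2271 for Gm13052, 3.1344 for Mbp, 2.7024 for Epb41l2, 2.646 for Sirt2 and 2.5587 for Fyn. For all 6 the vehicle mean was lower on Day 5 than on Day 1, and its part in the differences was not tested.

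The Day 1 effect differed between OPC/COP nuclei and oligodendrocyte nuclei of the same mice for 6 genes, by 1.2799 for Cdh19, 1.0574 for Gpc5, 1.0288 for Lhfpl3, 0.8712 for Oxr1, -1.0046 for Nnat and -1.6357 for Bcas1 (log2). Against astrocyte nuclei it differed for A330033J07Rik, by 3.2532, a gene whose mean in OPC/COP nuclei was lower with FGF1 (41.4 against 89.8 CPM). Against unmapped neurons it differed for 9 genes, by 1.2832 for Cdh19, 1.1755 for Rgs20, 1.079 for Fign, 0.9939 for Il1rap, 0.8822 for Nckap5, 0.7777 for Oxr1, 0.6873 for Lhfpl3, 0.6066 for Gpc5 and -0.9216 for Nnat. Neuron markers took 145 to 153 of 10000 UMIs in the OPC/COP nuclei of the 3 FGF1 mice of Day 1 and 154 to 201 in those of the 3 vehicle mice, and their part in these differences was not tested.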

How the results depend on the processing

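The Day 1 count of 4 genes became 34 without the low-count filter and 10 with all 10 mice in 1 fit. It became 0 with the replicate number as a block, with the batch as a block, in the 331 nuclei of lower neuron-marker share and in thinned nuclei (193, 175, 177 and 93 genes at an unadjusted p below 0.05 in edgeR), and ran from 0 to 21 as mice were left out. Same-numbered mice of Day 1 did not deviate together (r of -0.162, -0.227 and 0.167 over 4485 genes), so the numbers were not taken to pair them. No paired analysis was possible for Day 5 by number, because the groups share none. With the batch as a block, Day 5 gave 62 genes (45 higher, 17 lower). The Day 5 count of 74 became 39 with DESeq2 (33 higher, 6 lower), 27 with all 10 mice in 1 fit (27 higher), 23 in the nuclei of lower neuron-marker share (13 higher, 10 lower) and 47 in thinned nuclei (38 higher, 9 lower), and ran from 38 to 101 as mice were left out. A Day 5 fit without a mouse leaves 1 mouse in an arm, which is assumed to vary like the other group. The count of 6 for the day difference became 26 without the filter and ran from 1 to 22. Counts of type differences ran from 2 to 6 against oligodendrocytes (3 with RLE factors), 0 to 4 against astrocytes and 1 to 11 against unmapped neurons. Cluster 9 gave 92 genes with DESeq2 (29 higher, 63 lower) against 52. The Day 1 share difference ran from -0.482 to 1.899 percentage points for Gpr17 and from -0.3475 to 9.9009 for Pdgfra as mice were left out, crossing 0 without vehicle mouse 1 and without vehicle mouse 3. Over 6 whole-cell clusters the Pdgfra difference was -2.2257 percentage points, and those of Enpp6, Bmp4, Bcas1 and Gpr17 were 9.3413, 6.2923, 16.0887 and 14.7704. The causes of these changes were not tested. Every called gene that could be tested under an alternative to the Day 1, Day 5 or day-difference fit kept its sign. Requiring 2 OPC and COP marker UMIs removed 0 nuclei. The batch block, the filter on 8 specific markers and the whole-cell alternatives were chosen after seeing the data. Depth limits the vehicle mice of Day 5, which gave 52 and 17 nuclei.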
